A study of Homo sapiens with 4 samples.

Results

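The nuclear genes for the protein subunits of the mitochondrial respiratory chain and ATP synthase were followed in HEK293T, an established line from human embryonic kidney, transfected with expression vectors for SF3B1. Members were the protein-coding genes whose current or older symbol begins with NDUFA, NDUFB, NDUFC, NDUFS, NDUFV, UQCR, ATP5, COX4, COX5, COX6, COX7 or COX8, together with SDHA, SDHB, SDHC and SDHD, with pseudogenes, read-through genes and assembly factors left out. ATP5IF1, an inhibitor of ATP synthase, enters by its name. The rule used names and no measured value, and it found 88 members among 57820 gene IDs. Complex I had 37 of them (7 core and 30 accessory subunits), complex II had 4, complex III had 9, complex IV had 19 and complex V, the ATP synthase, had 19.

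SF3B1 is the subunit of the U2 snRNP that holds the branch point region of an intron, and its cancer-associated substitutions are known for moving acceptor choice to sites a short way upstream. The series holds 4 libraries of poly(A) RNA, 1 for each vector: SF3B1-R625H at 1000 ng of plasmid, SF3B1-K666T at 1000 ng, SF3B1-K700E at 2000 ng, and wild-type SF3B1 (WT), for which the sources used here give no amount. All 4 vectors went by Lipofectamine 2000 into the same line, which keeps its own SF3B1 genes. With 1 library per vector no difference has a replicate check, and the substitution, the plasmid amount and the library cannot be told apart for K700E.

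The respiratory chain passes electrons from NADH through complex I, or from succinate through complex II, to ubiquinone, then through complex III and cytochrome c to complex IV, which reduces oxygen. Complexes I, III and IV move protons across the inner membrane, and complex V uses that gradient to make ATP. Apart from complex II, each complex joins nuclear subunits to a few subunits encoded in mitochondrial DNA, and loss of a single subunit can stop its assembly. Most nuclear subunit genes are short, have few introns and are expressed in every cell, and their promoters are known for sites of the activators NRF1, GABPA and YY1.

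Gene reads numbered 82254731 in R625H, 86394759 in K666T, 83025588 in K700E and 90939945 in WT, and uniquely mapped reads across splice junctions numbered 65939159, 68585811, 71055491 and 71945311 in the same libraries. The members took 1.18, 1.15, 1.14 and 1.22% of the gene reads in R625H, K666T, K700E and WT. SF3B1 itself had 517, 521, 512 and 506 CPM (counts scaled to the library total of gene reads) in R625H, K666T, K700E and WT, and these levels do not check the labels, since it was not tested whether vector reads count towards the gene. Of 8 genes chosen as marks of this line, 6 were matched by name to a counted gene ID, and no filter on counts was applied. VIM had 660, 610, 521 and 560 CPM and NEFM 329, 335, 389 and 428 CPM in R625H, K666T, K700E and WT. CDH2 had 120.6, 123.8, 114.9 and 119.6 CPM in the same libraries. The others were low: WT1 at 13.52, 12.82, 12.14 and 12.84 CPM, GATA3 at 9.495, 9.85, 9.985 and 8.115, and PAX2 at 1.824, 1.748, 2.65 and 2.298.

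A pair of members whose coding sequence has a choice of donor shows how subunit transcripts vary in these cells, and their sequences are given first because both sites were annotated and deeply read in all 4 libraries. Capitals mark the bases that stay in the mRNA only when the downstream donor is used, with the coding bases before and after them in lower case. ATP5MF encodes subunit f of the ATP synthase membrane part, and its 18 nt lie at chr7:99063734-99063751 on the minus strand (hg19). NDUFB11 encodes an accessory subunit of complex I, and its 30 nt lie at chrX:47001983-47002012 on the minus strand (hg19). Both stretches keep the reading frame, since they lie in the coding sequence of GENCODE 29 transcripts and their lengths are multiples of 3. The ATP5MF stretch begins inside a codon.
ATP5MF: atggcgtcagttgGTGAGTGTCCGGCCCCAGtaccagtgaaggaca
NDUFB11: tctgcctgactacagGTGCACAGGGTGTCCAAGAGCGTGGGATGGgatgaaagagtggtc
The upstream ATP5MF donor took 55.3% of the reads in R625H, 53.0% in K666T, 52.9% in K700E and 54.4% in WT. The upstream NDUFB11 donor took 71.3% in R625H, 73.1% in K666T, 74.9% in K700E and 75.4% in WT. The first lay within 1.49 percentage points of WT in the 3 mutant libraries. The R625H share of NDUFB11 was 4.06 points below WT (adjusted p = 0.0230, two-sided Fisher's exact test with Benjamini-Hochberg adjustment), which compares libraries and was under the 10 points required of a call.

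Levels were first compared between genes as reads on the median intron scaled to total junction reads (RPM), a scale that does not depend on transcript length. COX7C, a small complex IV subunit, was the most read member, at 194.3 RPM in R625H, 177.6 in K666T, 140.2 in K700E and 199.8 in WT. The median complex III member had 95.8, 90.5, 96.9 and 98.6 in R625H, K666T, K700E and WT, and the median complex V member 82.3, 79.3, 74.8 and 81.4. Core complex I members were read less, with medians of 24.2, 22.1, 19.7 and 24.2, and the complex II median was 28.8, 30.6, 29.2 and 31.5 on the same scale. The accessory complex I median was 36.3, 35.3, 33.1 and 37.3. The median of the 16 complex IV members with an intron chain was 79.2 in R625H, 73.1 in K666T, 54.1 in K700E and 81.5 in WT. These include NDUFA4L2, COX6B2, COX7B2 and COX7A1, hardly read at 0.13, 0.04, 0.01 and 0 RPM in WT. Including them lowers this median in every library and affects which members it falls on. Such medians can fall on different members in different libraries. The median of the members' own K700E log2 ratios by junction reads was -0.20 for core complex I and -0.17 for complex IV.

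**Figure D1:**
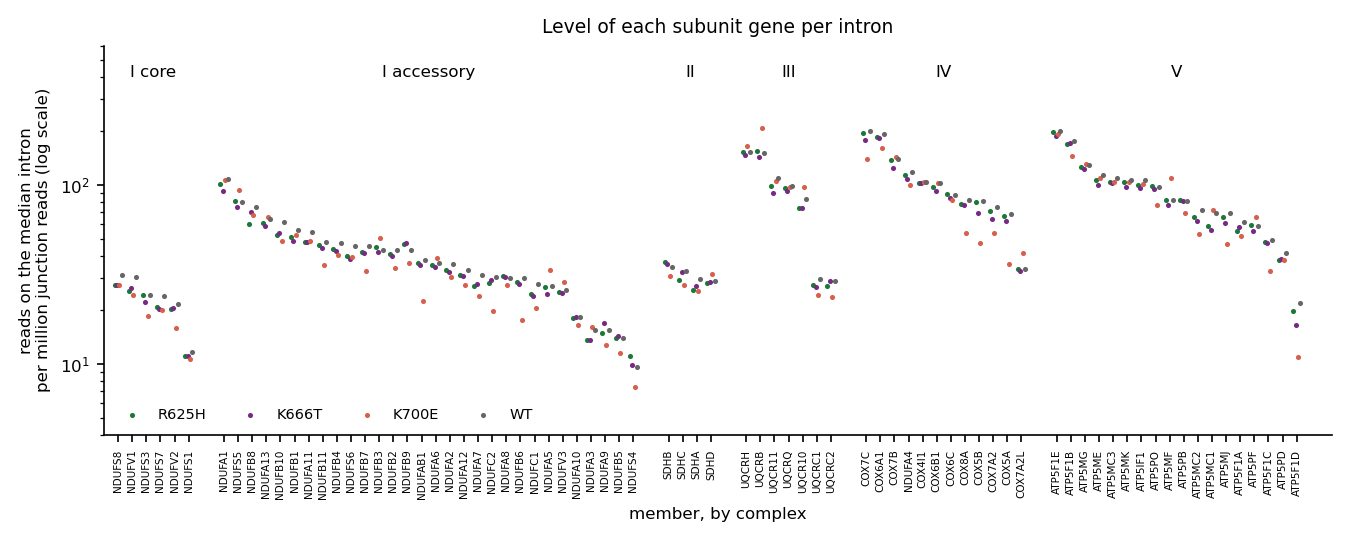
Reads on the median intron scaled to total junction reads (RPM, log axis) for members of each complex, 1 point for each library of R625H, K666T, K700E and WT. COX7C lies highest among complex IV members, at 194.3, 177.6, 140.2 and 199.8, and the K700E points of ATP5F1D, NDUFAB1 and COX5A lie below those of the other libraries.

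Gene reads were then compared as the log2 ratio of CPM, mutant over WT, with a prior count of 10, for the 78 members and 14847 genes that reached 1 CPM in at least 1 library. In R625H, 1 member was at least 1.2-fold lower than WT and 0 were at least 1.2-fold higher, against 7.62 and 7.15% of all genes tested. In K666T, 2 members were lower and 0 higher, against 7.1 and 9.93% of all genes. In K700E, 19 members (24.4%) were lower and 2 higher, against 12.4 and 14.8% of all genes. Without the undercounted members described below, 11 of 68 were lower and 1 higher in K700E, nearer to the 12.4% of all genes on the lower side. At 1.5-fold, 8 members were lower in K700E, against 2.16% of all genes. Within 1.2-fold of WT lay 77 of 78 members in R625H, 76 in K666T and 57 in K700E (98.7, 97.4 and 73.1%), compared with 85.2, 82.97 and 72.8% of all genes. In K700E members thus lay within 1.2-fold about as often as genes at large, and those outside were mostly on the lower side.

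Small shifts to the lower side were common to R625H and K666T. The members' median log2 ratio was -0.05 in R625H, -0.09 in K666T and -0.07 in K700E (-0.13 with unstranded counts and -0.03 without the undercounted members), with medians over all genes of -0.02, 0.00 and 0.00. Below zero lay 62 of 78 members in R625H, 69 in K666T and 50 in K700E, beside 54.3, 50.4 and 50.01% of all genes. These comparisons share the WT library, so a high WT library would lower all of them together. R625H and K666T, which had the same plasmid amount, differed by at least 1.2-fold in 1 member (lower in R625H) and 0 members the other way, against 3.82 and 2.48% of all genes.

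**Figure D2:**
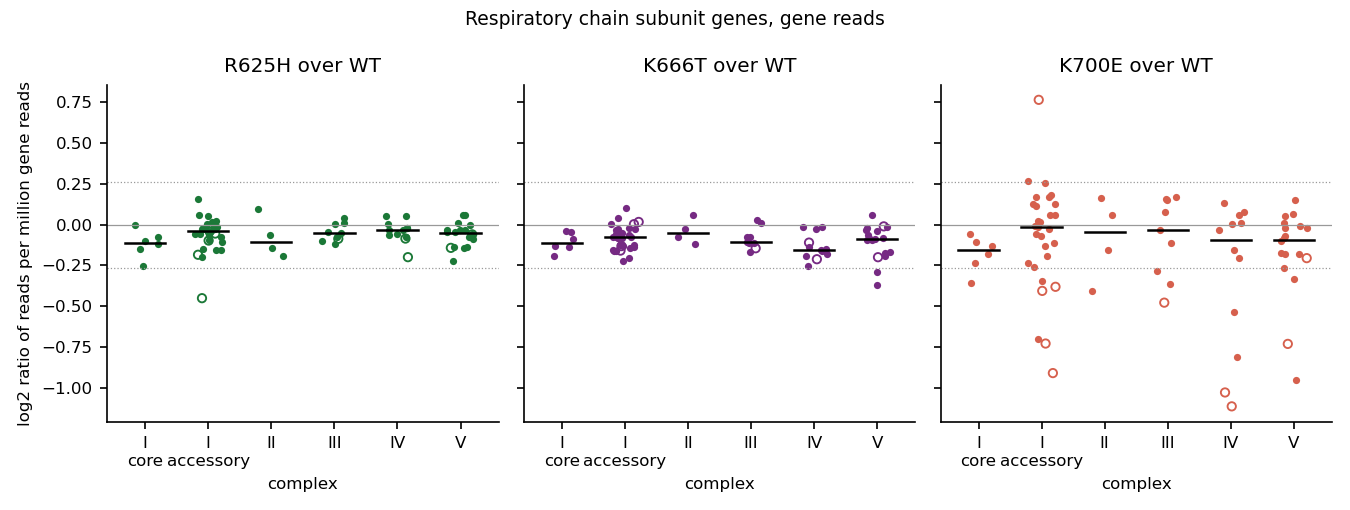
Log2 ratio of CPM over WT (vertical axis) for each member by complex, in R625H, K666T and K700E. Horizontal bars are medians, dotted lines mark 1.2-fold, and open circles are members whose gene reads in WT were fewer than the reads of their most-read intron. 19 members lie below the lower dotted line in K700E, against 1 in R625H and 2 in K666T.

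For 12 members the gene count was smaller than the count of reads across the most-read intron in WT, so the gene counts of these members miss most or part of their RNA. They are NDUFA7, NDUFA9, NDUFA11, NDUFA13, NDUFB8, NDUFC2, NDUFV2, UQCR11, COX6A1, COX8A, ATP5MF and ATP5PO. NDUFB8 had 563 gene reads in WT beside 9522 reads across 1 intron, and NDUFA13 had 129 beside 6836. NDUFA7, with 37, 46, 41 and 52 gene reads in R625H, K666T, K700E and WT, and NDUFV2, with 50, 41, 41 and 37, missed the filter, while their most-read introns had 3031 and 2032 reads in WT. Gene levels of these 12 are therefore uncertain, and summed junction reads are given beside gene reads. By junction reads 2 members were lower and 0 higher in R625H (9.15 and 6.26% of all genes), 3 lower and 0 higher in K666T (8.52 and 8.78%), and 16 lower and 2 higher in K700E (16.2 and 13.8%), of 78 members with enough junction reads. By this measure 20.5% of members were lower in K700E, nearer the share of all genes than by gene reads.

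Of 76 members with both measures, 10 were at least 1.2-fold lower in K700E by gene reads and by junction reads: ATP5F1D, ATP5MC2, COX5A, COX5B, COX8A, NDUFAB1, NDUFB10, NDUFC2, NDUFS3 and UQCRC1. Another 8 were lower by gene reads alone, and 6 of those 8 were among the members with undercounted genes. Among the 66 members with both measures and no such undercount, 10 were lower by gene reads and 14 by junction reads.

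**Figure D3:**
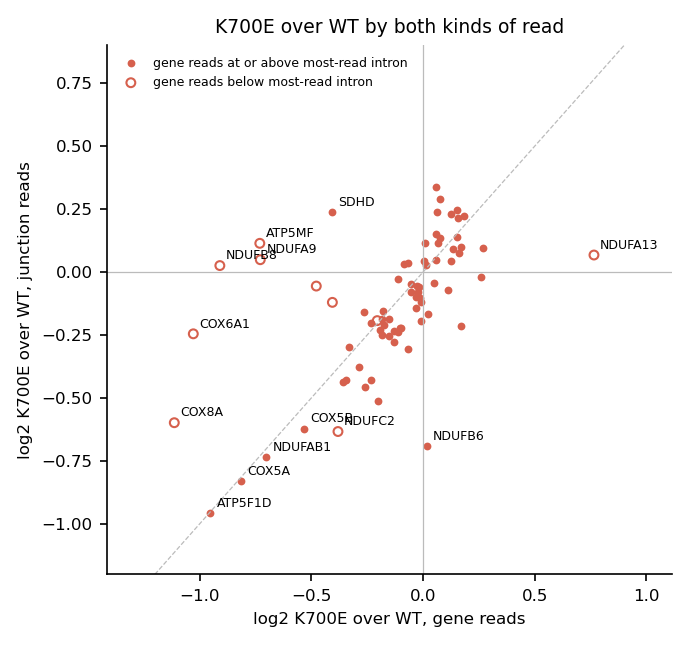
Log2 ratio of K700E over WT by summed junction reads (vertical axis) against the ratio by gene reads (horizontal axis), 1 point for each of 76 members. Open circles, undercounted members, lie off the diagonal, among them NDUFB8 at -0.91 by gene reads and 0.03 by junction reads, while ATP5F1D, COX5A, NDUFAB1 and COX5B lie on it.

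Complex I showed its clearest K700E difference in NDUFAB1 (ENSG00000004779), the mitochondrial acyl carrier protein, which also serves fatty acid synthesis and iron-sulfur cluster assembly. It had 113 CPM in R625H, 99 in K666T, 71.1 in K700E and 116 in WT. K700E was the lowest of the 4 libraries, at a log2 ratio of -0.70 by gene reads (counting interval -0.75 to -0.66) and -0.73 by junction reads, while K666T was at -0.22. The core subunit NDUFS3, part of the arm that leads electrons to ubiquinone, had 89.7, 87.4, 69.9 and 89.7 CPM in R625H, K666T, K700E and WT, so the K700E library alone stood apart. NDUFB10, an accessory subunit of the membrane arm, had 147, 146, 132 and 169 CPM in R625H, K666T, K700E and WT, lower in each mutant library than in WT. The core subunit NDUFV1, which binds NADH through flavin mononucleotide, had 193, 202, 211 and 231 CPM in the same libraries, and its R625H log2 ratio of -0.26 lay just inside 1.2-fold.

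The complex I members at the ends of the ranking by mean log2 ratio were NDUFB8 and NDUFA9 at the low end and NDUFA13 and NDUFB9 at the high end. NDUFB8 had 4.5, 5.53, 3.24 and 6.19 CPM and NDUFA9 6.71, 7.26, 4.56 and 7.64 CPM in R625H, K666T, K700E and WT. Their K700E junction ratios were 0.03 and 0.05, so the low gene values were not seen in the reads across their introns. NDUFA13, also known as GRIM-19, had 1.36, 1.28, 2.49 and 1.42 CPM, a K700E log2 ratio of 0.77 by gene reads and 0.07 by junction reads. NDUFB9 had 152, 156, 176 and 146 CPM in R625H, K666T, K700E and WT and a K700E ratio of 0.27 by gene reads, 0.10 by junction reads and -0.24 by unstranded counts. Both members counted as higher in K700E were therefore within 1.2-fold by junction reads.

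Complex II, which is also an enzyme of the citric acid cycle, differed little. SDHA, the flavoprotein, had 257, 271, 264 and 294 CPM in R625H, K666T, K700E and WT, and SDHB, the iron-sulfur subunit, had 146, 142, 153 and 136 CPM. Among the membrane anchors, SDHC had 124, 131, 144 and 138 CPM in those libraries. SDHD, the other anchor, had 78.9 CPM in R625H, 80.8 in K666T, 62 in K700E and 82.4 in WT. The SDHD direction turned with the kind of read: K700E was at -0.41 by gene reads and 0.24 by junction reads, although its gene reads exceeded those of its most-read intron.

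In complex III the core subunit UQCRC1 had 201, 196, 174 and 212 CPM in R625H, K666T, K700E and WT, with K700E lowest at a log2 ratio of -0.29 by gene reads and -0.38 by junction reads. The Rieske iron-sulfur protein UQCRFS1 had 97.1, 98.4, 74.9 and 96.4 CPM in those libraries, and no intron chain was matched for it. UQCR11 had 23.6, 22.6, 17.9 and 25 CPM, with a K700E ratio of -0.48 by gene reads and -0.06 by junction reads. UQCRB, named as the ubiquinone-binding protein, had 300.2, 277, 325 and 292 CPM, with K700E highest. The hinge protein gene UQCRH had 290.5, 275, 305 and 289.5 CPM in R625H, K666T, K700E and WT, and its close copy UQCRHL 38.4, 37.1, 47 and 41.7 CPM. Reads of that pair can be split by the counting, so each level is uncertain.

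In complex IV 4 of the 12 members that passed the filter were at least 1.2-fold lower in K700E, against 12.4% of all genes. The counts were 7 of 35 in complex I, 1 of 4 in complex II, 3 of 9 in complex III and 4 of 18 in complex V. COX8A and COX6A1, both among the 4 of complex IV, are undercounted members. COX5A (ENSG00000178741), a subunit on the matrix side, had 149, 137, 89.2 and 157 CPM in R625H, K666T, K700E and WT. COX5B (ENSG00000135940), which binds zinc, had 159, 137, 112 and 163 CPM. Both were lowest in K700E and next lowest in K666T: the K700E log2 ratios were -0.81 (counting interval -0.86 to -0.77) and -0.53 (-0.57 to -0.50), and the K666T ratios -0.19 and -0.25. COX8A had 42, 41.6, 22.2 and 48.2 CPM, a K700E ratio of -1.11 by gene reads and -0.60 by junction reads. COX6A1 had 50.9, 50, 26.4 and 54 CPM, a ratio of -1.03 by gene reads but -0.25 by junction reads. At the other end, COX7A2L, which joins complexes into supercomplexes, had 125, 119, 127 and 121 CPM in R625H, K666T, K700E and WT, and COX6C 197, 187, 209 and 191 CPM.

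The paralog pairs of complex IV were read in their ubiquitous form. COX4I1, the regulatory subunit of most tissues, had 320, 316, 321 and 319 CPM in R625H, K666T, K700E and WT, whereas the lung form COX4I2 had 1, 0, 0 and 0 reads. COX6B1 had 165, 158, 180 and 173 CPM, and COX6B2, a testis form, 27, 25, 25 and 34 reads. COX7A2 had 161, 146, 161 and 165 CPM, and the heart and muscle form COX7A1 0, 1, 1 and 0 reads. COX7B had 210, 190, 213 and 213 CPM, against 2, 0, 1 and 1 reads for COX7B2. COX8C had 4, 6, 3 and 8 reads, and the heart and muscle form COX6A2 had 0 in all 4 libraries. NDUFA4, now counted with complex IV, had 198, 186, 185 and 206 CPM in R625H, K666T, K700E and WT, and its hypoxia-induced relative NDUFA4L2 63, 75, 60 and 74 reads. These low members were not compared between libraries. ATP5MGL, a copy of ATP5MG, also missed the filter, with 1, 2, 0 and 2 reads.

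ATP5F1D (ENSG00000099624), the delta subunit of the central stalk of ATP synthase, showed the largest difference by gene reads among members not found to be undercounted. The check against the most-read intron cannot show that a gene count is complete. It had 76.8 CPM in R625H, 65.5 in K666T, 43.7 in K700E and 84.6 in WT. The order WT, R625H, K666T, K700E held for both kinds of read: the log2 ratios were -0.14, -0.37 and -0.95 by gene reads and -0.17, -0.38 and -0.96 by junction reads in R625H, K666T and K700E. ATP5MF had 32.6, 31.4, 21.7 and 36 CPM in R625H, K666T, K700E and WT, with K700E at -0.73 by gene reads and 0.11 by junction reads. ATP5PB, the peripheral stalk subunit b, had 406, 405, 371 and 389 CPM, and ATP5PD, subunit d, 103, 105, 118 and 106 CPM.

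Subunit c, which forms the rotor ring, is encoded by 3 genes whose mature proteins are the same. ATP5MC1 had 124, 118, 136 and 144 CPM in R625H, K666T, K700E and WT, lower in each mutant library than in WT. ATP5MC2 had 158, 153, 139 and 175 CPM, and ATP5MC3 319, 314, 279 and 335 CPM in the same libraries. The K700E log2 ratios of -0.08, -0.33 and -0.26 for ATP5MC1, ATP5MC2 and ATP5MC3 were all below zero. No member was at least 1.2-fold from WT in the same direction in all 3 mutants.

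Reads within the members were distributed differently in K700E. For 75 members with at least 100 reads on both their first and last intron, the log2 ratio to WT at the last intron minus that at the first had a median of 0.00 in R625H, 0.01 in K666T and -0.63 in K700E. Over 8112 genes the medians were -0.01, 0.02 and -0.34. The last intron was at least 0.5 below the first in 46 of 75 members in K700E (61.3%), against 37.7% of all genes, and in 0 members in R625H and in K666T. The K700E medians were 0.19 at the first intron and -0.54 at the last for members, and 0.18 and -0.16 for all genes.

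**Figure D4:**
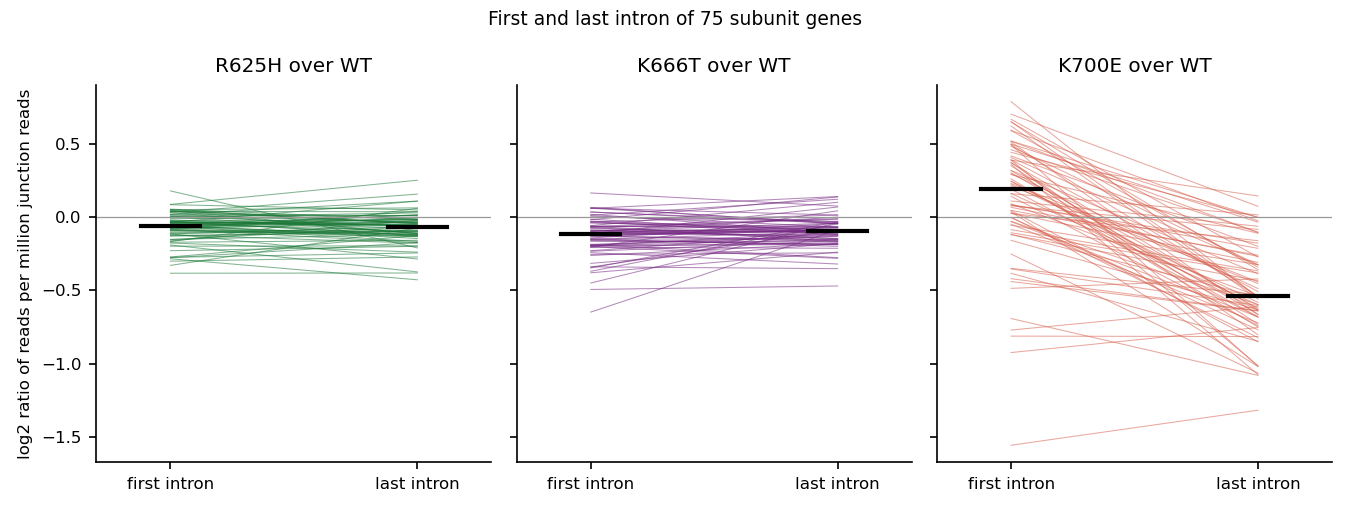
Log2 ratio of scaled junction reads over WT at the first and the last intron of 75 members, 1 line for each member, in R625H, K666T and K700E, with medians as bars. The K700E lines slope down, with medians of 0.19 and -0.54, whereas those of R625H and K666T are level.

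The slope was present in every complex, with median differences in K700E of -0.90 for core and -0.52 for accessory complex I members, -0.71 for complex II, -0.72 for complex III, -0.46 for complex IV and -0.66 for complex V. COX4I1 illustrates it, since its gene level hardly differed: intron 1 had 6697, 6903, 11224 and 7235 reads in R625H, K666T, K700E and WT, and intron 4 had 6790, 7097, 5155 and 7596. ATP5F1C, the gamma subunit of ATP synthase, had the steepest slope, -1.51. Its intron 1 had 4202, 4035, 6018 and 4323 reads and its intron 9 had 1561, 1444, 803 and 1646 in R625H, K666T, K700E and WT. K700E was thus highest of the 4 libraries at the 5′ end and lowest at the 3′ end of the same gene.

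Members have short transcripts, with a median length of 896 nt in GENCODE 29 against 3052 nt for all genes matched, and their introns lie close to the 3′ end. Within 200 nt of that end the K700E median was -0.54 for introns of members and -0.34 for all introns, and at 200 to 400 nt it was -0.43 and -0.32. At 400 to 800 nt the medians were -0.15 and -0.18, and at 800 to 1600 nt -0.15 and -0.07. Farther out they were -0.05 and -0.015 at 1600 to 3200 nt and -0.15 and -0.02 beyond, on introns of 9 and 7 members. The K700E medians of member introns were thus lowest within 400 nt of the 3′ end. From 800 nt on they stayed below those of all introns. How much of a member's gene level the place of its introns accounts for was not tested.

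Only 4 of the 75 members had a last intron as high as or higher than the first relative to WT in K700E: NDUFB7 (0.06), NDUFB6 (0.16), NDUFAB1 (0.17) and ATP5F1D (0.24). In all 4 the first intron was itself below WT in K700E. Intron 1 of ATP5F1D, at chr19:1241991-1242454 (hg19), had 779, 623, 309 and 920 reads in R625H, K666T, K700E and WT, and intron 4 had 461, 422, 243 and 613. Intron 1 of NDUFAB1, at chr16:23598641-23607443, had 2748, 2263, 1596 and 3066 reads. The K700E log2 ratio at the first intron was -1.56 for ATP5F1D and -0.92 for NDUFAB1, against a median of 0.19 over the 75 members.

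A low first intron also marked UQCRC1, COX5A, COX5B and NDUFS3, and in K666T as well as K700E. Intron 1 of UQCRC1, at chr3:48646736-48646984, had 1636, 1316, 1217 and 2163 reads in R625H, K666T, K700E and WT, while its intron 4 had 1983, 1991, 2269 and 2121. The first-intron log2 ratios were -0.65 in K666T and -0.81 in K700E for UQCRC1, -0.34 and -0.69 for COX5A, -0.32 and -0.38 for COX5B, and -0.45 and -0.42 for NDUFS3. For ATP5F1D and NDUFAB1 the K666T values were -0.49 and -0.37. The K666T median at the first intron was -0.11. In these 6 members the K666T difference from WT was larger at the first intron than in the gene count. Across members (n = 76), K700E log2 ratios had a Spearman correlation of -0.39 with the GC content of the transcript's first 300 nt. Across all 12480 genes it was -0.26. The R625H and K666T ratios of members gave -0.29 and -0.16 with the same GC content. With GC content of the whole transcript, members gave -0.44, -0.36 and -0.29 in R625H, K666T and K700E. All genes gave -0.20, -0.21 and -0.12, so the relation was not particular to K700E. These values come from the same libraries, and whether base composition plays a part was not tested.

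The introns themselves were of the common type. Of 361 member introns, 358 were GT-AG, 3 were GC-AG (in ATP5F1C, NDUFS8 and SDHD) and 0 were AT-AC, beside 0.801% GC-AG and 0.107% AT-AC among 161856 introns of all matched genes. Junctions other than those of the main intron chain held a median of 2.92% of a member's junction reads in R625H, 2.84% in K666T, 2.999% in K700E and 2.67% in WT, over 78 members with at least 1000 reads. The share was above WT in 55 members in R625H, 60 in K666T and 51 in K700E, and its counting interval lay wholly above the WT interval in 23, 28 and 32 of them, and wholly below it in 10, 10 and 9 members. This share was not computed for other genes, so whether these counts are particular to the members is not known.

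Competing acceptors, competing donors and cassette exons of the members were compared with WT by two-sided Fisher's exact tests. A call needed a difference of at least 10 percentage points and an adjusted p under 0.05. The adjustment ran over all genes within each class, with acceptors split into classes by distance. A call was made for 60 of 2098 in R625H (2.86%, against 1.25% of all), 36 of 2119 in K666T (1.70%, against 1.22%) and 37 of 2112 in K700E (1.75%, against 1.4%). Of the 86 pairs or exons called in any mutant, 70 had a site that the junction file of at least 1 library did not list. An unlisted site was counted as 0 reads, and whether it was unread or dropped when the file was made cannot be told apart. With sites listed in all 4 libraries, 10 of 649 were called in R625H (1.54%, against 0.812%), 6 of 652 in K666T (0.920%, against 0.852%) and 3 of 647 in K700E (0.464%, against 1.41%). At a minimum of 50 reads there were 20 calls of 1661 in R625H, 15 of 1698 in K666T and 18 of 1676 in K700E (1.2, 0.883 and 1.07%, against 0.829, 0.825 and 0.985% of all). With multi-mapped reads added there were 308 of 2730, 269 of 2768 and 305 of 2746 in those libraries (11.3, 9.72 and 11.1%, against 6.71, 6.89 and 7.49% of all). The called sites were small next to the main splice pattern: their median reads came to 2.79% of those on the member's median intron, and 6 of 86 exceeded 10%.

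Among the 86 were 16 pairs or exons, in 9 members, with all sites listed, and 0 of them were called in all 3 mutants. In NDUFB1, an accessory subunit of complex I, the acceptor at position 92587758 of chromosome 14 (hg19), 14 nt upstream of its competitor and, like it, outside the annotated chain, rose in R625H and K666T. It had 98, 42, 29 and 13 reads in R625H, K666T, K700E and WT, beside 19, 13, 22 and 20 on the downstream acceptor. Its share was 83.8% in R625H and 76.4% in K666T, against 39.4% in WT (adjusted p = 2.9e-05 and 0.0095, Fisher's exact test). In NDUFB8 the downstream of a pair of acceptors 43 nt apart gained: the upstream share fell to 82.99% in R625H and 82.8% in K666T, against 93.3% in WT, with 75, 105, 107 and 36 reads on the downstream site in R625H, K666T, K700E and WT.

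UQCRC1 moved the other way from NDUFB1. Of a pair of acceptors 26 nt apart on chromosome 3, both outside the annotated chain, the upstream had 26, 31, 21 and 30 reads and the downstream 63, 62, 33 and 19 in R625H, K666T, K700E and WT, so that the upstream share fell to 29.2% in R625H and 33.3% in K666T, against 61.2% in WT. In ATP5F1C, among reads that skip exon 2, the acceptor of intron 2 rose against one 7 nt downstream, to 85.1% in K700E, against 60.4% in WT (adjusted p = 3.9e-06, Fisher's exact test), with 84, 123, 200 and 81 reads on it in R625H, K666T, K700E and WT. NDUFV1 had 26, 42, 42 and 29 reads on an upstream acceptor and 18, 14, 5 and 18 on one 32 nt downstream, and the upstream share was 89.4% in K700E, against 61.7% in WT (adjusted p = 0.0402, Fisher's exact test). That call was lost when p was adjusted over sites listed in all 4 libraries (adjusted p = 0.0544). NDUFB9 had an acceptor pair 31 nt apart whose upstream share fell to 15.2% in R625H, against 28.7% in WT.

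Cassette exons were called in ATP5F1C, ATP5PB, NDUFV1, UQCRB and UQCRC2. Inclusion of a 66 nt exon of UQCRB fell to 71.4% in R625H, against 97.7% in WT, on 25, 302, 373 and 333 inclusion reads in R625H, K666T, K700E and WT and 10, 10, 30 and 8 skipping reads. NDUFV1 exons of 93 and 48 nt that share their downstream end fell to 44.0 and 65.0% in R625H, against 94.3 and 96.4% in WT. ATP5PB exons of 146 and 136 nt fell to 48.4% each in K666T, against 87.5% each in WT, and an 82 nt exon of UQCRC2, a core subunit of complex III, fell to 34.2% in K700E, against 81.5% in WT. In ATP5F1C a 171 nt exon rose to 52.6% in R625H, against 10.0% in WT, and a 325 nt exon to 51.8% in K700E, against 7.69% in WT. A 164 nt exon of ATP5PB fell to 72.4% in R625H, against 87.3% in WT, and the 136 nt exon was called there too, at an inclusion below that in WT. Inclusion and skipping reads together came to at most 38 in any library for the UQCRC2 exon. The most were 38 and 55 for the 93 and 48 nt exons of NDUFV1, and 67 and 64 for the 146 and 136 nt exons of ATP5PB. They were 76 and 67 for the 171 and 325 nt exons of ATP5F1C. For each exon called here they were at most 5.36% of the reads on the member's median intron.

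In other members with a call, the call rested on a site unlisted in at least 1 library, among them ATP5F1A, ATP5F1B, ATP5IF1, ATP5MC1, ATP5MC2, ATP5MC3, ATP5PO, COX4I1, COX5A, COX6A1, COX6B1, COX7A2, NDUFA4, NDUFA13, NDUFB4, NDUFB7, NDUFB10, NDUFC1, NDUFS3, NDUFS6, NDUFS8, SDHA and UQCRH. In ATP5MC1 an acceptor 16 nt upstream of its competitor had 203 reads in R625H and 141 in K700E and was unlisted in K666T and WT, beside 37, 32, 38 and 64 reads on the downstream site in R625H, K666T, K700E and WT. In ATP5MC3 the downstream of a pair 21 nt apart had 572 reads in R625H and 523 in K700E and was likewise unlisted in K666T and WT. In COX4I1 an acceptor at 85834825 of chromosome 16 had 369 reads in R625H alone, and another at 85834834 had 295 in WT alone. NDUFB10 had an acceptor with 212 reads in K666T and 219 in WT, unlisted in R625H and K700E, and in ATP5F1C the acceptor 39 nt beyond intron 9 had 1263 reads in R625H, 1181 in K666T and 1349 in WT and was unlisted in K700E. In COX6A1, which was called in all 3 mutants, the upstream of a pair 60 nt apart had 162 reads in WT and was unlisted in the mutant libraries. In NDUFS6 the acceptor had 107, 95 and 84 reads in R625H, K666T and K700E at one position, and 63 in WT at a position 3 nt away.

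Pooled over 96 pairs, unannotated acceptors 10 to 30 nt upstream of an annotated one took 0.220% of reads in R625H (95% Wilson interval 0.204 to 0.237), 0.0905% in K666T (0.0806 to 0.102), 0.185% in K700E (0.171 to 0.201) and 0.0698% in WT (0.0616 to 0.0790). Over 12899 pairs of all genes the shares were 0.344, 0.247, 0.265 and 0.167% in R625H, K666T, K700E and WT. The share was lower in members than over all genes in every library. Of the 683, 289, 610 and 247 upstream reads of members in R625H, K666T, K700E and WT, the ATP5MC1 site above gave 203 in R625H and 141 in K700E, and none in K666T and WT, where it was unlisted. Intervals cover counting error only.

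Where both sites were annotated and each had at least 100 reads in every library, the members' alternative splicing was close to WT. There were 20 such sites in 18 members (11 exons, 8 donor pairs and 1 acceptor pair), 0 were called, and the largest difference of each from WT had a median of 1.86 points. The 117 nt exon of ATP5MF was included in 79.8% of reads in R625H, 80.8% in K666T, 75.1% in K700E and 81.4% in WT. Its K700E value, 6.30 points below WT (adjusted p = 1.29e-15, Fisher's exact test), was the largest difference of the 20. A 102 nt exon of SDHC was included in 89.8% in R625H, 90.2% in K666T, 84.6% in K700E and 90.3% in WT (adjusted p = 1.78e-06 in K700E). Inclusion in K700E was below WT for 10 of 11 exons, against 8 in R625H and 9 in K666T.

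**Figure D5:**
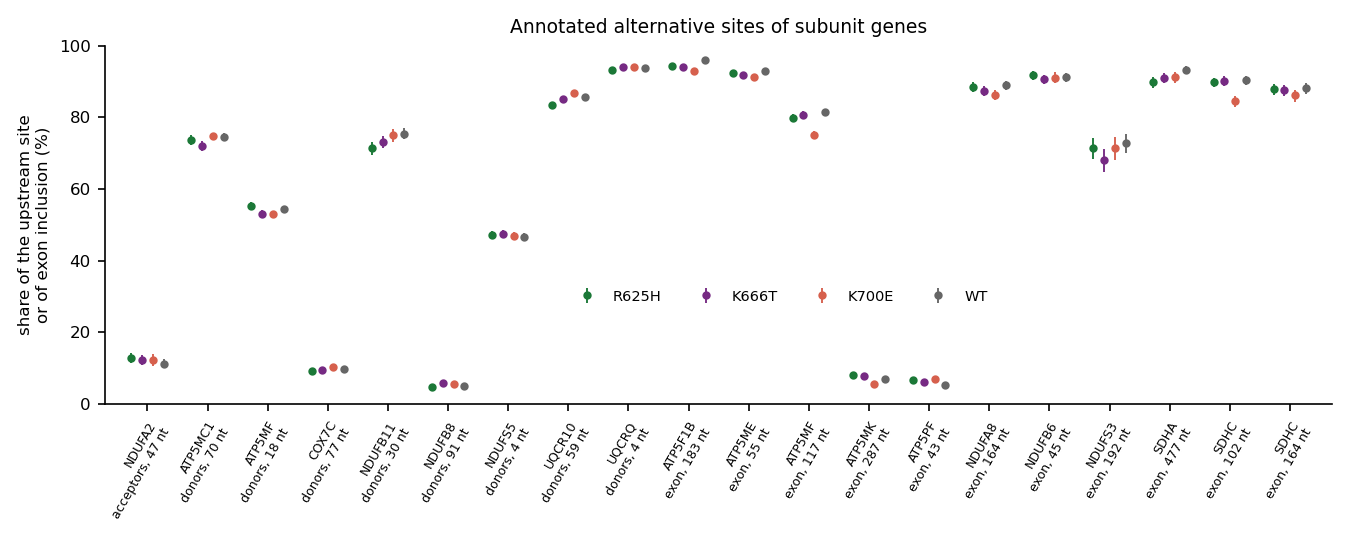
Share of the upstream site or of exon inclusion (%) for 20 annotated alternative sites in R625H, K666T, K700E and WT, with 95% Wilson intervals as bars. Shares of the 4 libraries lie close together at each site, and the 117 nt exon of ATP5MF at 75.1% in K700E, against 81.4% in WT, is the widest gap.

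The choice of donor in NDUFS5 was near even in every library. Its upstream donor, 4 nt before the other, took 47.2% in R625H, 47.4% in K666T, 47.0% in K700E and 46.5% in WT, with 3657, 3540, 5598 and 3877 reads on it in the same libraries. For the donor pairs of ATP5MF and NDUFB11 shown above, the reads on the upstream donor numbered 5421, 5293, 7725 and 5900 for ATP5MF, and 1951, 1994, 1479 and 2274 for NDUFB11, in R625H, K666T, K700E and WT. In UQCR10 the upstream of a pair of donors 59 nt apart took 83.4% in R625H, 85.0% in K666T, 86.7% in K700E and 85.6% in WT.

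Promoters were compared because many members carry the same activator sites. Of the 88 members, 70 were matched to 83 RefSeq promoters (GRCh38.p14, from 250 bases before to 50 after the start), searched on both strands. The NRF1 motif GCATGCGC stood in 18.1% of member promoters, against 4.63% of promoters of all genes tested. The GABPA motif CCGGAAG stood in 26.5%, against 16.04%, the YY1 motif AAGATGG in 22.9%, against 6.74%, and the ERR motif AAGGTCA in 14.5%, against 2.64%. A TATAAA was found in 8.43%, against 6.42%. The last 150 bases before the start of COX5B, COX8A and SDHD, members lower in K700E by gene reads, are given below on the strand of the gene with NRF1 and GABPA matches in capitals, at chr2:97645912-97646061, chr11:63974470-63974619 and chr11:112086723-112086872, all on the plus strand.
COX5B: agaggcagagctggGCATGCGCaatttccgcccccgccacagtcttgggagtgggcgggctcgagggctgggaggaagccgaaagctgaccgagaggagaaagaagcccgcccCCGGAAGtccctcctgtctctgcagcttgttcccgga
COX8A: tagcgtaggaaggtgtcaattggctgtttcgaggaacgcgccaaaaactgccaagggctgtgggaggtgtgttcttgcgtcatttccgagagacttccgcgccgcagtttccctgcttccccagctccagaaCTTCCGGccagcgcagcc
SDHD: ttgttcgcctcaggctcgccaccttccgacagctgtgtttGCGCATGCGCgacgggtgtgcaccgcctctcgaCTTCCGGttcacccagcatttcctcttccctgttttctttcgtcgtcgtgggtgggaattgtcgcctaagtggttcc
Members with and without the motifs had similar levels relative to WT. The median K700E log2 ratio was -0.07 for 14 members with the NRF1 motif and -0.07 for 50 without, -0.02 for 21 with the GABPA motif and -0.08 for 43 without, and -0.03 for 17 with the YY1 motif and -0.10 for 47 without. In SDHD the NRF1 match is a palindrome that reads on both strands, and the COX8A match lies on the opposite strand.

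Genes that work with the members were counted from fixed lists. Of 13 mitochondrially encoded subunits, 0 were at least 1.2-fold from WT in R625H and in K666T, and in K700E 9 were lower and 1 higher (12.4 and 14.8% of all genes), with medians of 0.08, -0.09 and -0.42. MT-CO1, the catalytic subunit of complex IV, had 11210, 10198, 8167 and 10972 CPM in R625H, K666T, K700E and WT. MT-ND6, the one subunit gene encoded on the light strand, had 258, 256, 669.6 and 256 CPM, so that it alone was higher in K700E. Of 14 nuclear regulators, 1 was lower in R625H by gene reads (TFB1M, a mitochondrial transcription factor, at -0.28, beside 7.62% of all genes). By gene reads 0 were past 1.2-fold in K666T and K700E. By junction reads 1 was lower in R625H, 1 higher in K666T and 3 lower in K700E. The shares of all genes were 9.15, 8.78 and 16.2% for those 3 counts. NRF1 had 24.4, 24.5, 24.5 and 24.9 CPM, and GABPA 85.9, 87.2, 85.0 and 82.2 CPM.

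Among 11 tested partners of the chain, 0 were past 1.2-fold in R625H and K666T and 3 were lower in K700E, beside 12.4% of all genes. By junction reads, for a partly different 11, 1 was higher and 1 lower in R625H (6.26 and 9.15% of all genes). In K666T 1 was lower (8.52%), and in K700E 2 were higher and 2 lower (13.8 and 16.2%). The one higher in R625H and the one lower in K666T were both COXFA4L3. It missed the filter on gene reads, with 46, 32, 35 and 35 reads in R625H, K666T, K700E and WT. The 3 lower by gene reads were CYC1, cytochrome c1 of complex III, at 156, 158, 138 and 183 CPM in R625H, K666T, K700E and WT, ETFB, which feeds electrons from fatty acid oxidation, at 17.04, 17.8, 12.3 and 19.1 CPM, and COQ2, an enzyme of ubiquinone synthesis, at 19.9, 21.3, 18.3 and 23.3 CPM. Cytochrome c itself, CYCS, had 389, 405, 458 and 385 CPM. Among 46 tested assembly factors, 1 was higher in R625H (7.15% of all genes) and 2 were lower in K666T (7.1%). In K700E 8 were lower and 1 higher, where 12.4% of all genes were lower and 14.8% higher. By junction reads, with 46 tested, 3 were lower in R625H (9.15% of all genes) and 4 in K666T (8.52%). By the same reads 7 were lower and 3 higher in K700E (16.2 and 13.8%). NDUFAF3, an assembly factor of complex I, had 83.8 CPM in R625H, 70.1 in K666T, 50.7 in K700E and 99.8 in WT. Its order of libraries was that of ATP5F1D, with log2 ratios of -0.51 in K666T and -0.97 in K700E.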

How the data were processed

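Per the labels, poly(A) RNA of 4 transfected HEK293T cultures went into a stranded library kit and was sequenced in 100-bp pairs. For each library the authors deposited counts of raw reads by gene and by splice junction; STAR 2.5.3a, HTSeq and hg19/GRCh37 are named in the submitters' processing notes, with no settings in the sources used here. Counts of the stranded column were used. Rows without a gene name held 28.7, 29.5, 28.4 and 21.9% of all reads, unmapped ones included, in R625H, K666T, K700E and WT. Among mapped reads the share was 14.7, 14.8, 15.7 and 14.3% in the same libraries. Library sizes summed the gene rows only. Columns without a sample numbered 0.

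Members and gene lists were chosen with earlier results of these data known. Gene reads were scaled to library totals (CPM), kept at 1 CPM in at least 1 library, and compared as log2 ratios at 1.2-fold, with 10 reads as prior count and no test. Counting intervals are 95% intervals. Junctions were assigned by matching intron lengths and order of GENCODE 29 (GRCh38) to hg19 junctions. Acceptor pairs, donor pairs and cassette exons with at least 20 reads in both libraries were compared by two-sided Fisher's exact tests with Benjamini-Hochberg adjustment; exon inclusion used the smaller of the 2 flanking junction counts. The within-gene comparison of introns was added after the data were seen. Alternatives used edgeR 4.0.16 (TMM) and DESeq2 1.42.0 size factors under R 4.3.3. The computations were tested on simulated data.

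Named members were the 2 highest and 2 lowest of each complex by mean log2 ratio, any at 1.2-fold in the same direction in all 3 mutants, the paralog pairs and those with a called pair or exon; among the latter, reads are given for part of those with unlisted sites. Other members named were chosen after their values were seen. Results of 1 gene by name are not reported here.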

Additional observations from a re-analysis of the deposited data

How the results depend on the processing

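No paired analysis was possible because each group had 1 library, so no library was left out either. Under other settings 96 summary values were unchanged or within the allowed range and 30 moved. Members past 1.2-fold in any mutant were scored in every mutant under each setting. Of these values 427 stayed, 8 lost and 1 gained the call and 5 turned sign. Most of the values that stayed were not past 1.2-fold at the main setting, so their number does not show how stable the calls were. Turned signs were counted only for values past 1.2-fold. The cause of the changes was not tested.

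The 1 member lower in R625H became 3 without a filter, 0 at 30 CPM, 2 unstranded, 2 by junction reads, 0 at 1.5-fold and 0 without the undercounted members; the 0 higher became 1 without a filter. The 2 lower in K666T became 0 at 1.5-fold. The 19 lower in K700E became 8 at 1.5-fold and 11 without the undercounted members, and the 2 higher became 1 with TMM, at 30 CPM, unstranded, at 1.5-fold and without the undercounted members. The K700E median was -0.13 unstranded. R625H against K666T gave 2 higher without a filter, and 0 lower at 30 CPM, by junction reads, at 1.5-fold and without the undercounted members.

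Called pairs and exons were 20, 15 and 18 in R625H, K666T and K700E at 50 reads, 10, 6 and 3 with sites listed in all 4 libraries, and 308, 269 and 305 with multi-mapped reads added. In K700E the sign turned by junction reads for ATP5MF (0.11), NDUFA9 (0.049), NDUFB8 (0.026) and SDHD (0.24), and unstranded for NDUFB9 (-0.24).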
